A study of Brassica napus with 10 samples.

Results

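The genes described here are a set of 27 out of 59458 *Brassica napus* genes, whose RNA was at most 1/3 of the pollen level in embryogenic structures formed under a low dose of trichostatin A (TSA), but close to the pollen level in structures formed under a high dose. Levels are given as CPM, the count of a gene divided by the total count of its library and multiplied by 1000000. A gene was a member when its mean was at least 10 CPM in pollen, at most 1/3 of that pollen mean at low TSA, and 0.67 to 1.5 times the pollen mean at high TSA. The set was therefore chosen on the means of all 3 groups, and those means are given below as a description, without a test. It holds 0.143% of the 18858 genes with a pollen mean of at least 10 CPM, called pollen-expressed genes from here on.

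RNA was sequenced from 3 kinds of 3-day-old microspore culture of the *pLEC1:LEC1-GFP* reporter line in the DH12075 background, a reporter that all groups carry. Embryogenic structures formed in cultures after heat stress (HS) together with 0.5 µM TSA (HS + TSA high, 3 libraries) or 0.05 µM TSA (HS + TSA low, 4 libraries), and were sorted by flow cytometry for GFP fluorescence. In vitro pollen (3 libraries) developed at 18 °C and was not sorted. Each library was made from 150000 cells. No library of heat-stressed structures without TSA was analysed here, so both doses are set against pollen and against each other. Sorting, heat stress, TSA and culture temperature cannot be told apart from cell type in any comparison with pollen, and a lower share of one kind of cell cannot be told apart from less RNA per cell. The libraries are called biological replicates in the labels, which do not say whether each came from a separate culture.

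Isolated microspores of *B. napus* normally go on to form pollen in culture, and a heat stress can divert part of them into embryo development. TSA inhibits histone deacetylases, enzymes that remove acetyl groups from histones and other proteins. Loss of acetyl groups from histones usually goes with closed chromatin and low transcription, and TSA given together with heat stress promotes the formation of embryogenic structures. LEC1 is a transcription factor of embryo identity, and its GFP fusion marks the structures that were collected. The gene identifiers used here carry no gene names beyond a published list of endoplasmic reticulum (ER) stress genes, and that list holds no entry for LEC1, so the labelled cell types could not be checked against marker genes. For the same reason the members are given by their identifiers and positions on the Darmor-bzh version 10 genome, and no function is assigned to them.

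Total counts were 58468526 to 67884748 in HS + TSA high, 51838498 to 61458274 in HS + TSA low and 93367646 to 109105528 in pollen. HS + TSA high library 1 stood apart from libraries 2 and 3, with Pearson correlations over genes of 0.891 and 0.873, against 0.934 between libraries 2 and 3 (log2 CPM). HS + TSA low libraries 1 and 4 were the closest pair of any group (0.980). They differed by more than sampling noise, with a chi-square per degree of freedom of 7.91 on halved counts. In the other pairs within a group that value ran from 24 to 104. Whether libraries 1 and 4 came from separate cultures cannot be told from these values. The members were well covered. Their smallest raw count in any library was 230 in HS + TSA high, 72 in HS + TSA low and 648 in pollen, and the median counts were 990, 300.0 and 1846 in the same order of groups. Together the 27 genes took 0.0558% of all counts in HS + TSA high, 0.0202% in HS + TSA low and 0.0696% in pollen.

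The members were a small tail of the genes lowered at low TSA. Of the pollen-expressed genes, 1172 (6.21%) were at most 1/3 of the pollen mean in HS + TSA low. In HS + TSA high, 907 of these (77.4%) were also at most 1/3 of pollen, 238 (20.3%) lay between 1/3 and 0.67, 27 (2.3%) lay in the window of 0.67 to 1.5, and 0 lay above 1.5. The median ratio of HS + TSA high to pollen over the 1172 genes was 0.191 and the highest was 1.32. Over all pollen-expressed genes the median ratio to pollen was 0.791 at both doses. The opposite pattern, at most 1/3 of pollen in HS + TSA high and 0.67 to 1.5 times pollen in HS + TSA low, was found in 105 genes. Among pollen-expressed genes in general, 344 (1.82%) were at least 2 times higher in HS + TSA high than in HS + TSA low, and 1158 were at most 0.5 times the HS + TSA low mean.

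**Figure D1:**
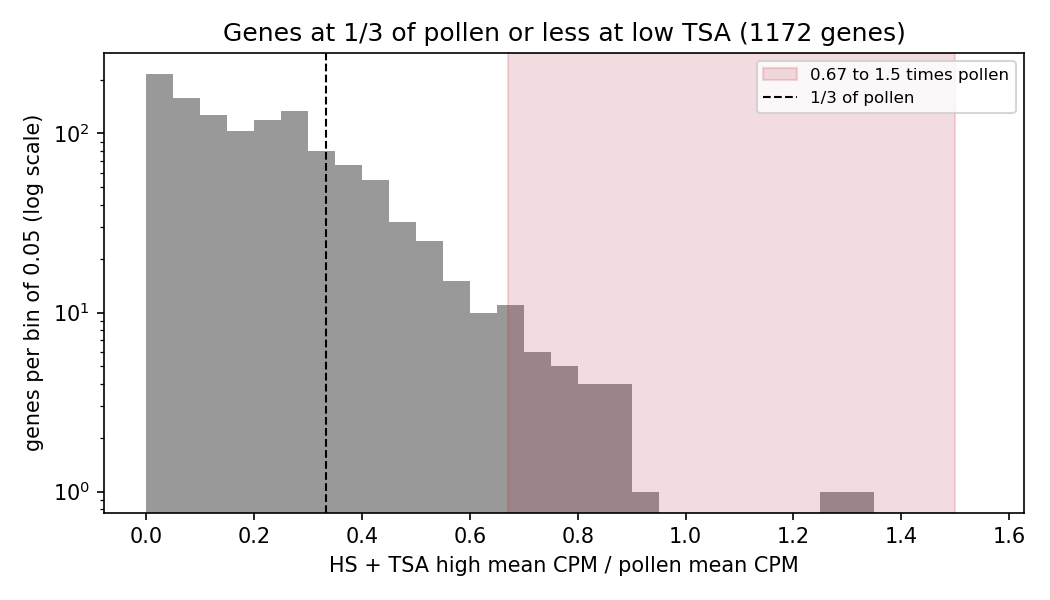
Ratio of the HS + TSA high mean to the pollen mean (x axis, ratio of CPM) for the 1172 genes whose HS + TSA low mean was at most 1/3 of the pollen mean, as the number of genes per bin of 0.05 (y axis, log scale). The dashed line marks 1/3 and the shaded band 0.67 to 1.5. Gene numbers fall off from left to right without a gap at the lower edge of the band, which holds 27 genes.

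The lower edge of the window cut through a continuous range. The members just inside it had ratios of HS + TSA high to pollen of 0.673, 0.674 and 0.68, and the nearest genes outside had 0.664, 0.663 and 0.662. A further 16 genes lowered at low TSA lay between 0.6 and 0.67. At the limit for low TSA, the members just inside had ratios to pollen of 0.3322, 0.3246 and 0.3232, the nearest genes outside had 0.3339, 0.337 and 0.3401, and 48 genes that met the other limits lay between 1/3 and 0.4. At the limit on abundance, pollen means just inside were 11.1, 11.7 and 12.2 CPM, and those of the nearest genes that met the other limits were 9.98, 9.92 and 9.34 CPM.

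Most members sat in the lower part of the window at high TSA. The ratio of HS + TSA high to pollen ran from 0.673 to 1.32 with a median of 0.763, and was below 0.8 in 16 members, from 0.8 to 1 in 9 and at or above 1 in 2. The ratio of HS + TSA low to pollen ran from 0.166 to 0.332 with a median of 0.294. It was at least 0.3 in 13 members and below 0.25 in 5. The HS + TSA high mean was 2.14 to 5.22 times the HS + TSA low mean, with a median of 2.57 times. The members were of moderate abundance. Their means ran from 7.77 to 76.1 CPM in HS + TSA high (median 15.7), from 2.32 to 35.3 CPM in HS + TSA low (median 5.2) and from 11.1 to 106 CPM in pollen (median 18.2). The pollen median was 27.7 CPM over all pollen-expressed genes and 31.0 CPM over the genes lowered at low TSA. Per kilobase of exon, the pollen level of the members ran from 3.19 to 43.1 CPM with a median of 7.67.

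**Figure D2:**
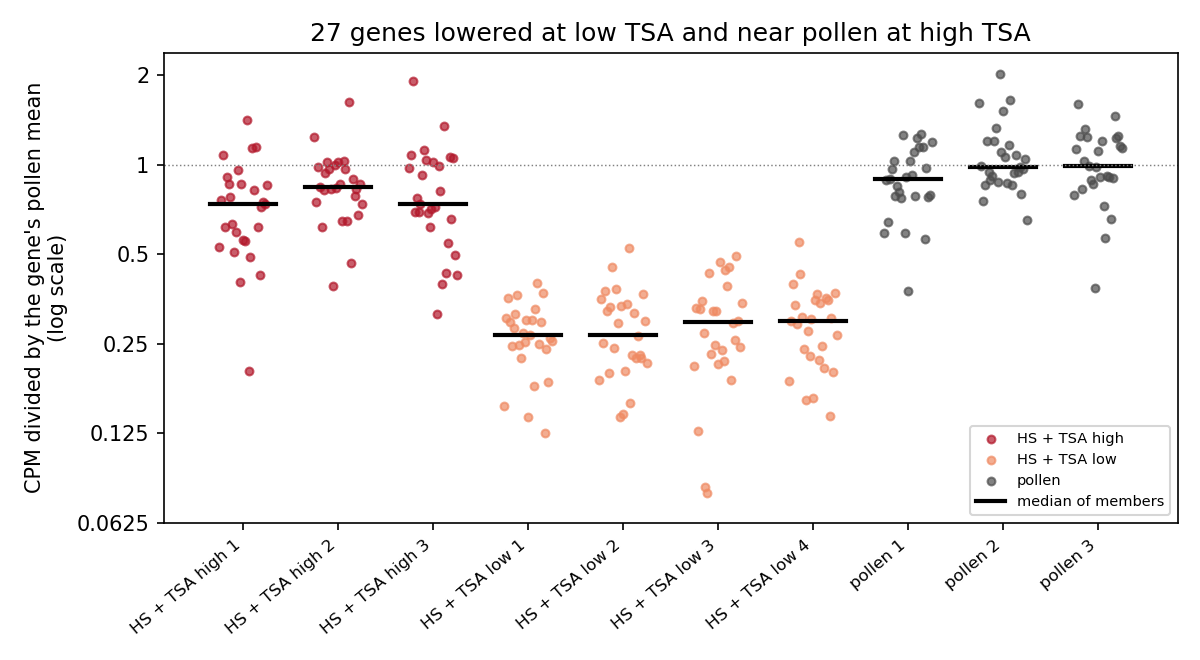
CPM of each of the 27 members divided by its pollen mean (y axis, log scale) in each of the 10 libraries (x axis), with 1 point per gene and a bar at the median over members. The medians were 0.74, 0.84 and 0.74 in the HS + TSA high libraries, 0.267 to 0.297 in the HS + TSA low libraries and 0.894 to 0.99 in the pollen libraries. The spread of the points is wider in HS + TSA high than these medians show, with single values from 0.202 to 1.91.

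The rule used group means, so the single libraries show how evenly each mean arose. All 27 members had every HS + TSA low library below every pollen library, an order that 25.6% of the 45264 genes tested had. In 24 members every HS + TSA high library lay above every HS + TSA low library, against 12.1% of the genes tested. HS + TSA high and pollen libraries overlapped in 22 members. In the other 5, which were A03p38140, A04p09700, A08p35170, A09p02320 and C03p92870, every HS + TSA high library lay below every pollen library, an order that 28.0% of the genes tested had. The choice of members bears on all 3 counts, so nothing is read from their difference from those shares.

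Few members were near pollen in each HS + TSA high library on its own. All 3 libraries lay at 0.67 to 1.5 times the pollen mean in 5 members, which were A01p34870, A04p09700, A04p12230, A08p35170 and C08p52450. In 17 members 2 libraries lay in the window, and in 5 members only 1 did (A08p34900, A09p48890, C01p18510, C03p85560 and C03p92870). By library, 15, 21 and 18 of the 27 members lay in the window in HS + TSA high libraries 1, 2 and 3. In HS + TSA low libraries 1 to 4, 23, 19, 19 and 17 members were at most 1/3 of the pollen mean. HS + TSA high library 2 was the highest of its group in 13 members, library 1 in 8 and library 3 in 6. Over all pollen-expressed genes library 1 was the highest in 50.4%, library 2 in 26.5% and library 3 in 23.1%.

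Replicates spread more widely in the members than in pollen-expressed genes in general. The median coefficient of variation of the members was 30.9% in HS + TSA high, 29.0% in HS + TSA low and 22.2% in pollen, against 20.1%, 16.9% and 12.5% over all pollen-expressed genes. Over the genes lowered at low TSA the medians were 45.1%, 26.9% and 21.9%. The highest library was at least 2 times the lowest in 10 members within HS + TSA high, in 11 within HS + TSA low and in 6 within pollen. The members are also less abundant than these gene sets, and the part of abundance in the wider spread was not tested.

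The named members show both an even and an uneven form of the pattern. The 2 with the highest pollen level were A03p38140 and C03p92870. A03p38140.1_BnaDAR lies on chromosome A03 from 17405724 to 17415348, on the minus strand, with 35 annotated exons that sum to 5533 bases. It had 65.6, 89.3 and 73.5 CPM in HS + TSA high, 31.3, 39.8, 34.6 and 35.7 CPM in HS + TSA low, and 95.0, 90.5 and 133 CPM in pollen. The means were 76.1 ± 12.1 (SD, n = 3), 35.3 ± 3.48 (SD, n = 4) and 106 ± 23.6 CPM (SD, n = 3) in that order of groups. No ranges overlapped, and HS + TSA high lay between the other groups, nearer to pollen. On the scale of the edgeR fit the log2 difference was 1.11 (SE 0.18) between HS + TSA high and HS + TSA low, -0.44 (SE 0.19) between HS + TSA high and pollen, and -1.55 (SE 0.18) between HS + TSA low and pollen.

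C03p92870.1_BnaDAR lies on chromosome C03 from 73361656 to 73369934, on the minus strand, with 18 exons that sum to 5248 bases. It had 30.7, 44.6 and 27.0 CPM in HS + TSA high (34.1 ± 9.24, SD, n = 3), 18.4, 13.2, 14.6 and 17.4 CPM in HS + TSA low (15.9 ± 2.39, SD, n = 4), and 57.0, 46.9 and 44.8 CPM in pollen (49.6 ± 6.51, SD, n = 3). The groups again did not overlap, but HS + TSA high library 2 came close to the lowest pollen library. Library 3 was nearer to HS + TSA low, and library 1 lay in between. The log2 differences were 1.10 (SE 0.19) between the doses, -0.50 (SE 0.20) between HS + TSA high and pollen and -1.60 (SE 0.19) between HS + TSA low and pollen.

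The 2 members with the largest ratio between the doses were A09p01080 and A01p03180. A09p01080.1_BnaDAR, on chromosome A09 from 968420 to 971201 (minus strand, 6 exons, 1659 exonic bases), had 14.6, 26.7 and 26.7 CPM in HS + TSA high (22.7 ± 7.0, SD, n = 3), 3.7, 3.79, 5.58 and 4.28 CPM in HS + TSA low (4.34 ± 0.867, SD, n = 4), and 9.83, 39.6 and 29.0 CPM in pollen (26.1 ± 15.1, SD, n = 3). The HS + TSA high mean was 5.22 times the HS + TSA low mean. The pollen libraries themselves differed by up to 4.03 times, and all HS + TSA high libraries lay inside the pollen range. The log2 differences were 2.38 (SE 0.42) between the doses, -0.17 (SE 0.44) between HS + TSA high and pollen and -2.55 (SE 0.42) between HS + TSA low and pollen.

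A01p03180.1_BnaDAR, on chromosome A01 from 1472022 to 1478786 (minus strand, 11 exons, 5233 exonic bases), had 11.4, 26.7 and 21.0 CPM in HS + TSA high (19.7 ± 7.74, SD, n = 3), 3.32, 4.07, 4.53 and 4.03 CPM in HS + TSA low (3.98 ± 0.499, SD, n = 4), and 12.7, 34.9 and 17.1 CPM in pollen (21.6 ± 11.7, SD, n = 3). In this gene, as in A09p01080, the HS + TSA low libraries were close together and the libraries of the other groups were spread. The log2 differences were 2.31 (SE 0.37) between the doses, -0.09 (SE 0.39) between HS + TSA high and pollen and -2.40 (SE 0.37) between HS + TSA low and pollen.

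**Figure D3:**
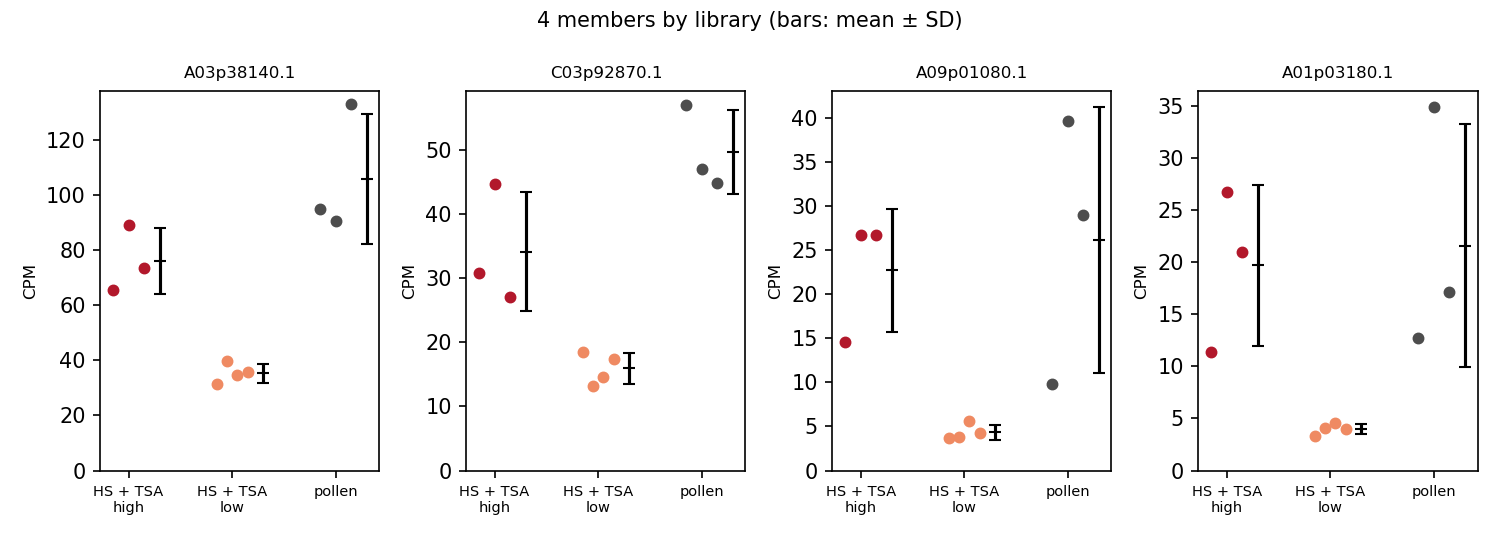
CPM (y axis, from 0, a scale of its own in each panel) of A03p38140, C03p92870, A09p01080 and A01p03180 by library, with 1 point per library, and beside each group the mean and a bar of 1 SD either way (n = 3 in HS + TSA high, n = 4 in HS + TSA low, n = 3 in pollen). In each panel every HS + TSA high point lies above every HS + TSA low point, and in A09p01080 and A01p03180 the pollen points span 4.03 and 2.75 times.

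The 3 members in which the doses overlapped were each carried by a part of the HS + TSA high libraries, and they were singled out after their values were seen. A09p48890 had 60.5, 27.6 and 13.4 CPM in HS + TSA high, 12.8, 14.5, 10.2 and 15.7 CPM in HS + TSA low, and 39.4, 37.2 and 51.4 CPM in pollen. Its HS + TSA high library 1 lay above all pollen libraries and library 3 lay inside the HS + TSA low range. A09p68360 had 3.39, 17.3 and 16.6 CPM in HS + TSA high, 3.03, 8.85, 3.67 and 3.71 CPM in HS + TSA low, and 18.5, 19.6 and 12.2 CPM in pollen. Here library 1 was the low one of HS + TSA high. C01p18510 had 18.4, 10.4 and 6.38 CPM in HS + TSA high, 6.44, 3.68, 6.28 and 3.95 CPM in HS + TSA low, and 19.8, 13.8 and 14.8 CPM in pollen, so that library 3 fell inside the HS + TSA low range.

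In 2 members, named here after their values were seen, the HS + TSA high mean was above the pollen mean. C03p31250, a gene of 2 exons, had 32.3, 63.9 and 52.8 CPM in HS + TSA high, 9.76, 12.4, 17.7 and 8.11 CPM in HS + TSA low, and 45.0, 36.9 and 35.6 CPM in pollen, a ratio of HS + TSA high to pollen of 1.27. Its HS + TSA high library 1 lay below all pollen libraries and libraries 2 and 3 above them. A02p11780, a gene of 1 exon, had 12.6, 11.5 and 22.4 CPM in HS + TSA high, 4.17, 2.93, 1.49 and 4.65 CPM in HS + TSA low, and 7.54, 8.82 and 18.8 CPM in pollen, a ratio of 1.32. In HS + TSA high and in pollen, library 3 was its highest, while in HS + TSA low library 3 was its lowest.

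The steadiest member across replicates was A08p35170, on chromosome A08 from 25297489 to 25304405 with 21 exons, also singled out after its values were seen. It had 31.9, 31.0 and 26.2 CPM in HS + TSA high, 11.1, 12.4, 11.9 and 11.2 CPM in HS + TSA low, and 33.7, 41.0 and 36.3 CPM in pollen. The highest library was at most 1.22 times the lowest in each of its groups. At the other end, A08p34900 had 15.8, 54.2 and 10.3 CPM in pollen, a span of 5.27 times, against 10.8, 26.7 and 16.6 CPM in HS + TSA high. Its place near pollen at high TSA depends on which pollen library it is set against.

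Over all genes, edgeR's quasi-likelihood test called 4.94% higher in HS + TSA high than in HS + TSA low when p-values were adjusted by Benjamini-Hochberg and 0.05 was the limit, and 24 of the 27 members were among them. The 3 that were not called were A08p34900, A09p68360 and C01p03700. Between HS + TSA high and pollen 46.2% of all genes were called in either direction and 0 members were. At an unadjusted p under 0.05, which 53.7% of all genes had, 2 members differed from pollen (A03p38140 and C03p92870). After adjustment DESeq2 called 0 members (46.3% of all genes) and limma-voom 1 (49.7%). Between HS + TSA low and pollen 17.4% of all genes were called lower, and all 27 members were. The rule used each of these contrasts, so these counts are a description and are not support for the pattern. A call that was missed also does not show that HS + TSA high equals pollen. The standard errors of that difference ran up to 0.57 on the log2 scale, and 25 of 27 members had an HS + TSA high mean below the pollen mean. An edgeR fit with the replicate number as a block held all groups, although pollen showed no pairing by number. In that fit 16 members were called higher in HS + TSA high than in HS + TSA low. Compared with pollen, 0 were called in HS + TSA high and 26 were called lower in HS + TSA low. Over all genes, the shares called in either direction were 6.27%, 44.0% and 39.0% for these comparisons under the block, and 10.4%, 46.2% and 43.7% without it.

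A library that the choice did not use can be read by leaving it out, choosing the genes on the other 9, and then looking at the left-out library. Without HS + TSA high library 1, 2 or 3 the rule chose 29, 28 and 35 genes. Of these, 10 (34.5%), 13 (46.4%) and 16 (45.7%) lay at 0.67 to 1.5 times the pollen mean in the library left out, 39 of 92 in all. Among the 1172 genes lowered at low TSA the share in that window was 4.18%, 3.33% and 2.3% in the same libraries. The median ratio to pollen of the chosen genes in the left-out library was 0.584, 0.662 and 0.655, below the lower limit of 0.67 each time, against 0.188, 0.2 and 0.138 for the genes lowered at low TSA. Only the library read was left out of the choice. The pollen and HS + TSA low means behind the ratios and limits were part of it, and the 1172 genes include the genes chosen.

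Libraries of the other groups were left out in the same way. Without HS + TSA low library 1, 2, 3 or 4 the rule chose 28, 30, 31 and 27 genes, of which 67.9%, 43.3%, 41.9% and 55.6% were at most 1/3 of pollen in that library. The shares of all pollen-expressed genes were 7.03%, 9.68%, 8.2% and 6.64%. The median ratio to pollen of the chosen genes in the left-out library was 0.297, 0.346, 0.348 and 0.304, under the limit of 1/3 in libraries 1 and 4 and over it in libraries 2 and 3. Without pollen library 1, 2 or 3 it chose 29, 27 and 19 genes, and both ratios held against the left-out pollen library in 7, 9 and 6 of them (24.1%, 33.3% and 31.6%), compared with 0.0959%, 0.112% and 0.111% of all pollen-expressed genes. The pollen-expressed genes set beside them did not have to meet the rule's other limits in the remaining libraries. A gap to the chosen genes was therefore built in, and nothing is read from its size. The genes chosen in these readings overlap heavily and each reading rests on 1 library, so no test was made. The libraries of 1 group also share their treatment and sorting.

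**Figure D4:**
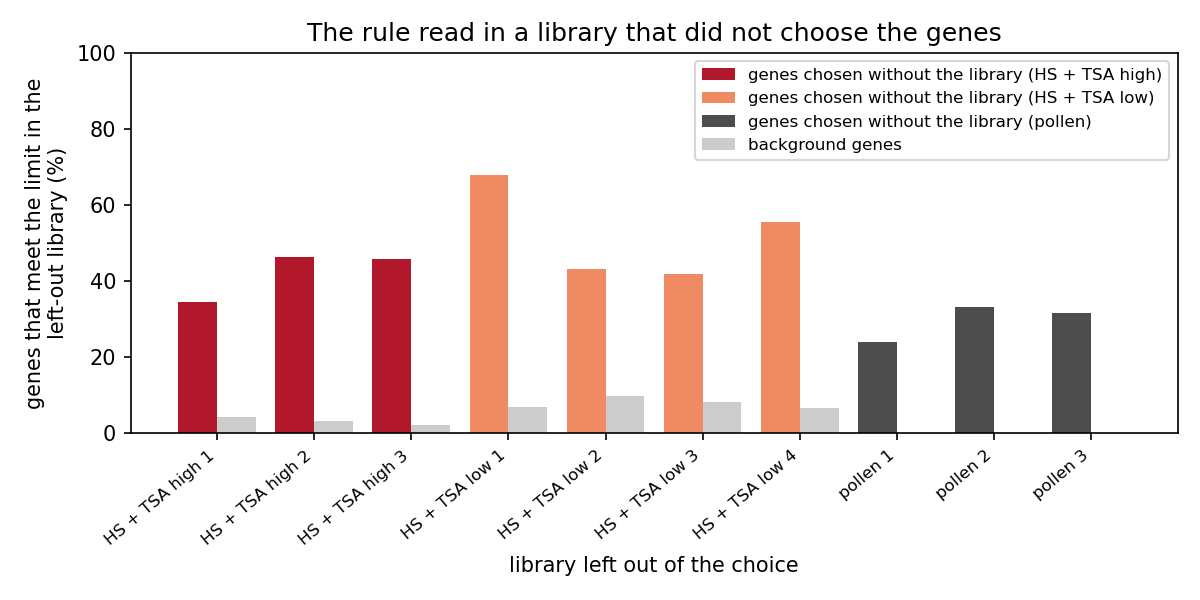
Share of the genes chosen by the rule without 1 library that met the limit in that library (y axis, percent, from 0; red, orange and dark grey bars), and the same share among background genes (light grey bars), for each library left out (x axis). The background is the 1172 genes lowered at low TSA for the HS + TSA high libraries and all pollen-expressed genes for the others. The latter did not have to meet the rule's other limits, so a gap to them was built in. The coloured bars run from 24.1% to 67.9% and the background bars from 0.0959% to 9.68%.

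The members tended to have long transcripts, a feature the rule did not use. Their summed exon length had a median of 2410 bases (quartiles 1828 and 3488, range 910 to 5533), against 1549 bases over all pollen-expressed genes. It was 1682 bases in the 907 genes lowered to 1/3 at both doses, 2400 bases in the 238 genes between 1/3 and 0.67 at high TSA, and 822 bases in the 105 genes of the opposite pattern. At least 3 kb of exon were found in 10 members (37.0%), against 11.9% of pollen-expressed genes, 13.8% of genes lowered at both doses, 34.0% of the intermediate genes and 0.952% of the opposite set. The members were thus close in length to the 238 intermediate genes and longer than the genes lowered at both doses. The median number of exons was 6 in the members and 6 in pollen-expressed genes. The range was wide, with 4 members of 1 exon (14.8%, against 8.19% of pollen-expressed genes) and 4 of at least 20 exons (14.8%, against 5.96%).

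**Figure D5:**
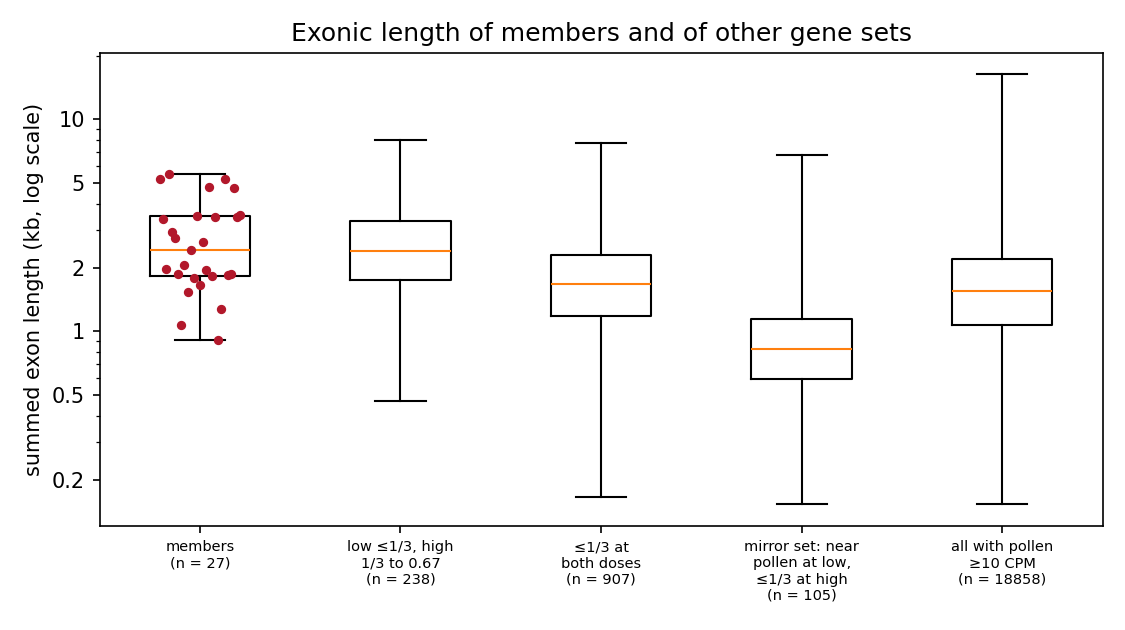
Summed exon length (y axis, kb, log scale) of the 27 members and of 4 other gene sets (x axis, with the number of genes). Boxes span the quartiles with a line at the median, whiskers reach the shortest and the longest gene, and red points are the members. The medians were 2410 bases in members, 2400 in intermediate genes, 1682 in genes lowered at both doses, 822 in the opposite set and 1549 in all pollen-expressed genes.

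The same relation to length ran through all pollen-expressed genes. In genes under 1 kb, 1 to 2 kb, 2 to 3 kb and at least 3 kb of exon, the median ratio of HS + TSA high to pollen was 0.904, 0.787, 0.743 and 0.727. The median ratio of HS + TSA low to pollen was 1.15, 0.787, 0.65 and 0.616. The median ratio of HS + TSA high to HS + TSA low was accordingly 0.754, 0.979, 1.13 and 1.19. Longer genes were thus lower relative to pollen at both doses, and more so at low TSA. Members made up 0.025%, 0.122%, 0.138% and 0.447% of the pollen-expressed genes in these length classes (1, 11, 5 and 10 genes), and genes of the opposite pattern 1.77%, 0.344%, 0.0553% and 0.0447%. In single libraries, the median ratio to pollen of genes of at least 3 kb was 0.782, 0.708 and 0.668 in HS + TSA high and 0.633, 0.608, 0.518 and 0.656 in HS + TSA low. The doses did not overlap in this median, but HS + TSA high library 3 and HS + TSA low library 4 differed by little. All libraries were amplified with the same kit, but only the HS + TSA libraries were sorted. The part of this length relation in the members' pattern was not tested.

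The members were spread over the genome. They lay on 14 of 19 chromosomes, with at most 4 on 1 chromosome (A09), and 17 (63.0%) were in the A subgenome and 10 (37.0%) in the C subgenome, against 48.4% and 50.7% of pollen-expressed genes. The plus strand held 12 and the minus strand 15. No member overlapped another annotated gene, compared with 5.48% of pollen-expressed genes. The nearest annotated genes lay 114 bases from C08p53050 and 162 bases from A05p39730, and transcripts that run past an annotated end, which unstranded libraries would not tell apart, were not tested. Reads shared with near-identical copies in the A and C subgenomes could not be checked. None of the 54 genes next to a member was a member. The closest members were A08p34900 and A08p35170, 124747 bases apart. Next came C08p52450 and C08p53050 (278456 bases) and A09p01080 and A09p02320 (664776 bases). Clustering was not tested. Of the 22 adjacent genes that were pollen-expressed, 1 was at most 1/3 of pollen at low TSA and 1 was at least 2 times higher in HS + TSA high than in HS + TSA low. These 22 genes had median ratios to pollen of 0.762 in HS + TSA high and 0.704 in HS + TSA low. Adjacent genes under 10 CPM in pollen were left out of these counts, and they went both ways between the doses. Among those of at least 1 CPM at either dose, the widest ratios were towards HS + TSA high. A06p32930, next to A06p32920, had 13.2 CPM in HS + TSA high and 4.95 CPM in HS + TSA low. In the same order, A08p34890, next to A08p34900, had 8.97 and 2.85 CPM. A04p12190, next to A04p12230, had 7.09 and 3.36 CPM, and C03p92960, next to C03p92870, had 4.14 and 0.998 CPM. The widest ratio the other way was that of C09p35660, next to C09p35610, with 4.17 and 7.47 CPM.

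Genes of the ER stress response were the subject of the study and the only ones whose names could be matched. Proteins that misfold in the ER activate the unfolded protein response, which raises chaperones such as the HSP70 protein BiP and its DnaJ co-chaperone ERDJ3B. The study's list holds 71 *B. napus* genes, 52 of which had counts and 44 of which were pollen-expressed. Of these 44, 9 were at most 1/3 of pollen in HS + TSA low, against 6.21% of all pollen-expressed genes. Of the same 44, 0 were members, against 0.143% of all pollen-expressed genes. At that share the list is too short for a count of 0 to be read as a lack of members. In HS + TSA high, 6 of the 9 were also at most 1/3 of pollen. Their ratios to pollen were 0.273 in HS + TSA high and 0.176 in HS + TSA low for BiP2.2, 0.209 and 0.131 for BiP2.4, 0.226 and 0.18 for ERDJ3B.1, 0.324 and 0.228 for the transcription factor NAC103.1, 0.17 and 0.293 for SDF2.2, and 0.00268 and 0.00259 for BiP3.2. The other 3 lay between 1/3 and 0.67, with 0.347 and 0.33 for BiP2.3, 0.41 and 0.21 for ERDJ3B.4 and 0.627 and 0.299 for BiP2.5.

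BiP2.5 (C06p20420.1_BnaDAR, chromosome C06 from 25433764 to 25441365, 6 exons) came nearest to the members. It had 10.0, 10.8 and 6.46 CPM in HS + TSA high (9.1 ± 2.33, SD, n = 3), 3.07, 7.86, 4.16 and 2.27 CPM in HS + TSA low (4.34 ± 2.47, SD, n = 4), and 9.91, 14.9 and 18.7 CPM in pollen (14.5 ± 4.43, SD, n = 3). Its HS + TSA high mean was 2.1 times its HS + TSA low mean, but the doses overlapped, since HS + TSA low library 2 exceeded HS + TSA high library 3. Copies of BiP2 may share reads, so the value of a single copy is uncertain. BiP2.5 was chosen by the rule when HS + TSA high library 3 was left out, with medians of libraries in place of means, and with a window of 0.5 to 2 at high TSA. With a limit of 1/2 of pollen at low TSA the rule chose 1 other gene of the list, A10p03460, a copy of the protein disulfide isomerase PDIL2-2/PDI10.

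How firmly a gene belonged to the set varied from member to member. Of the 27 members, 5 were chosen whichever of the 10 libraries was left out, and these were also chosen under 6 other ways of scaling or averaging. They were A01p03180, A06p11560, A06p32920, A08p35170 and C08p52450. A06p32920 had 14.8, 20.7 and 25.9 CPM in HS + TSA high, 5.58, 9.53, 5.75 and 4.03 CPM in HS + TSA low, and 19.3, 33.2 and 22.3 CPM in pollen. C08p52450, a gene of 38 exons, had 30.0, 27.0 and 42.2 CPM in HS + TSA high, 7.43, 14.7, 11.9 and 8.0 CPM in HS + TSA low, and 31.1, 38.5 and 50.0 CPM in pollen. In both genes every HS + TSA high library was above every HS + TSA low library and the HS + TSA high and pollen ranges overlapped. At the other extreme, 8 members were chosen in fewer than 7 of the 10 readings with 1 library left out. The fewest, 5 readings, was found for A03p38140, the most abundant member, whose ratio of 0.332 at low TSA is just inside the limit.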

How the data were processed

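The cDNA of the 10 libraries was amplified with SMART-seq v4, an unstranded kit. STAR alignment to Darmor-bzh version 10, featureCounts and DESeq2 normalization were run by the authors. Versions in the submitters' notes are 2.7.10a for STAR and 1.5.2 for Subread. The authors deposited raw counts per gene with summed exon length, and a normalized signal (counts divided by a size factor per library), used here as an alternative only. The deposited fold changes and p-values of the authors' own comparisons were not used. No value column was left without a sample.

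Of the 61170 lines of the count table, 1712 exact repeats were dropped. Of the members' counts, 77.0% were even (71.5% of all counts above 0), and if mates of a pair were counted separately, which was not tested, counts overstate independent fragments. Precision from depth covers counting error only. CPM used column sums. The edgeR fit (4.0.16, R 4.3.3) held all 10 libraries, with filterByExpr (minimum count 10, total 15), TMM, the quasi-likelihood test and Benjamini-Hochberg adjustment over 45264 genes, and all 27 members passed the filter. The SE was computed as |log2 fold change| / √F. On simulated counts for HS + TSA low against pollen (44350 genes fitted, 200 changed 3-fold), 68% of lowered and 79% of raised genes were recovered and 6 others were called. Tables and figures used Python 3.11.15, pandas 2.3.3, numpy 2.4.6 and matplotlib 3.10.9. Alternatives were DESeq2 1.42.0, limma-voom (3.58.1), other scalings, filters, limits and averages, fits of 2 groups, a replicate block and each library left out.

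The members and lists were chosen with earlier results of these data known. Members named were the 2 with the highest pollen mean (every HS + TSA low library below every pollen library) and the 2 with the largest ratio between doses (every HS + TSA high library above every HS + TSA low library, HS + TSA low mean at least 0.5 CPM), plus ER stress genes at most 1/3 of pollen at low TSA. Others named were chosen after their values were seen. Of all gene identifiers, 0 matched the reference gene table, so no sequence is printed.

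Same-numbered HS + TSA high and HS + TSA low libraries correlated in their deviations from group means by 0.33, 0.13 and 0.194. All were above 0.1, and the numbers were taken to pair them, but the libraries fell into sets rather than pairs. HS + TSA high library 1 correlated by 0.33 and 0.297 with HS + TSA low libraries 1 and 4. With libraries 2 and 3 it had -0.24 and -0.293. HS + TSA high libraries 2 and 3 had 0.13 to 0.194 with HS + TSA low libraries 2 and 3. With libraries 1 and 4 they had -0.232 to -0.176. The block by number does not follow these sets, and a block by set was not fitted. With pollen, same-numbered HS + TSA libraries correlated by -0.00636 to 0.0545, under 0.1, and no pairing was seen. The block fit still gave each pollen library the block of its number, and HS + TSA low library 4 had a block to itself.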

Additional observations from a re-analysis of the deposited data

Results flagged for a closer look

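Within the 4 libraries of HS + TSA low, 1 library stood far from the others in 2 of the 27 members by Dixon's criterion, which chance alone meets in about 1 of 20 groups. A06p11560 had 5.29 CPM in library 3 against 2.92 to 3.01 CPM in the other libraries, a gap of 0.961 of the whole range. Even so, all of its HS + TSA high libraries (6.19, 11.8 and 13.7 CPM) lay above that value, and its pollen libraries had 9.85, 14.7 and 12.1 CPM. A09p68360 had 8.85 CPM in library 2 against 3.03 to 3.71 CPM in the other libraries, a gap of 0.883 of the range. Its HS + TSA high libraries had 3.39, 17.3 and 16.6 CPM and its pollen libraries 18.5, 19.6 and 12.2 CPM. The groups of 3 libraries were not examined in this way.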

How the results depend on the processing

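The number of genes chosen depended mainly on the limits. It was 41 with a pollen minimum of 5 CPM and 13 with 20 CPM, 5 with a low-TSA limit of 1/4 of pollen and 317 with 1/2, and 9 with a high-TSA window of 4/5 to 5/4 and 82 with one of 0.5 to 2. Other scalings gave 29 genes (TMM, 23 of them members), 32 (DESeq2 size factors, 27 members) and 33 (deposited normalized counts, 27 members), and the median of libraries in place of the mean gave 34, of which 16 were members. With HS + TSA low libraries 1 and 4 averaged to 1 it gave 29, of which 26 were members. Leaving out 1 library gave 19 (without pollen library 3, 13 members) to 35 (without HS + TSA high library 3, 25 members). Members called between HS + TSA high and pollen were 2 with no filter on low counts, 1 with limma-voom and 0 to 3 with 1 library left out (3 without HS + TSA high library 1, 2 without library 2, 1 without HS + TSA low library 2). Without HS + TSA high library 2 the log2 differences of A03p38140 and C03p92870 from pollen became -0.64 and -0.81 and were called. Members called higher in HS + TSA high than in HS + TSA low were 12 (without HS + TSA low library 1) to 23 with 1 library left out, and 14 without HS + TSA high library 2. The share of all genes called in either direction between the doses, 10.4% as reported, was 18% with DESeq2 and 4.56 to 13.9% with 1 library left out. With the replicate block, which rests on an uncertain pairing, it was 6.27%, with 16 members called against 24 without the block. The causes were not tested. The log2 difference between HS + TSA high and pollen changed sign in A09p01080 (0.08 without HS + TSA high library 1 and 0.26 without pollen library 2, range -0.57 to 0.26 with 1 library left out) and in A01p03180 (0.20 and 0.45 in the same order, range -0.43 to 0.45), and these 4 values were not called. Of 200 values for single genes and lesser counts, 187 were taken as unchanged. For single genes this meant the same direction and side of the threshold, and for counts a similar size. Each member had at least 72 counts in every library, and how far depth or the number of libraries limits these results was not tested.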
